A study of Mus musculus with 4 samples.

Results

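The genes described here are 10 genes of protein folding and of the unfolded protein response in the endoplasmic reticulum (ER), namely Calr, Canx, Pdia3, Pdia4, Pdia6, Xbp1, Atf6, Ern1, Herpud1 and Sdf2l1. They were chosen by name for their known function, and a row was taken if any of its comma-separated symbols was on the list. All 10 genes were found, in 10 of the 14099 named rows, and all 10 rows passed the expression filter. The Calr row was a joined row of more than 1 gene, and Pdia4 shared its row with Mir704, a microRNA gene that lies inside it, so the values of these rows are not those of Calr or Pdia4 alone.

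Polyadenylated RNA was sequenced from mouse embryonic stem cells (ESCs), 2 libraries from Naa10-KO cells and 2 from wild-type (WT) cells. Naa10 is the catalytic subunit of NatA, which acetylates the N-termini of many proteins during their synthesis; the series title concerns its role in DNA methylation and imprinting. Both genotypes came from blastocysts of one cross, C57BL/6 mothers carrying 1 Naa10-null X chromosome with JF1 fathers, and the WT cells were from littermates. All cells shared a serum-free N2B27 medium with LIF, the Mek inhibitor PD325901 and the Gsk3 inhibitor Chir99021, and had 5 passages on irradiated embryonic fibroblast feeders and 5 without them. The labels call the libraries biological replicates but do not say whether they came from separate lines, so a p-value here reflects only how these 4 libraries vary, which may be technical.

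Secretory and membrane proteins fold in the ER. Calreticulin (Calr) and calnexin (Canx) are lectins that hold newly made glycoproteins, and protein disulfide isomerases such as Pdia3, Pdia4 and Pdia6 form and rearrange their disulfide bonds. When unfolded proteins build up, the sensor Ern1 (IRE1α) splices the mRNA of the transcription factor Xbp1 into its active form, and the sensor Atf6 is cut to release another transcription factor. Both factors raise the transcription of chaperones, isomerases and genes of ER-associated degradation (ERAD), among them Herpud1 and Sdf2l1. Splicing and cleavage are not visible in gene-level values, so only total mRNA is described.

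Promoter windows of these genes are shown because ATF6, together with NF-Y, is known to act through the ER stress element (ERSE), a CCAAT box and a CCACG box set 9 bases apart. RefSeq windows of GRCm38.p6, 250 bases before to 50 after the gene start, were at hand for 9 of the 10 genes, all except Atf6. They are of the C57BL/6J reference, while the cells also carried a JF1 genome. The ERSE, searched as CCAAT, any 9 bases and CCACG, was looked for on both strands and was found in 3 of the 9 windows, those of Calr, Canx and Pdia6, and in 39 of 32851 windows of all genes (0.119%). Without its last base (CCAAT, any 9 bases, CCAC) the motif also matched Pdia3, Pdia4 and Herpud1, giving 6 of 9 windows against 0.365% of all windows. Of the 8867 tested rows with a window, 18 held the ERSE and 41 the form without its last base. The genes were chosen for their known function in this response, so these shares are descriptions and no test of enrichment. The stretches follow, read 5′ to 3′ along the strand that holds the motif, with the bases that match the motif in capitals. Those of Hspa5 and Hsp90b1, the main ER chaperones of the Hsp70 and Hsp90 families, are given beside them.
Calr: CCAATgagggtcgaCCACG
Canx: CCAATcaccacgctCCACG
Pdia6: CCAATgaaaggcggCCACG
Pdia3: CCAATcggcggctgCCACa
Pdia4: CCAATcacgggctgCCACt
Herpud1: CCAATggatggcagCCACa
Hspa5: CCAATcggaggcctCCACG
Hsp90b1: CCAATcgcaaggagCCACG
Hsp90b1, second match: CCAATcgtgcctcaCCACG

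The whole windows of Pdia6 and Herpud1 show how the motifs lie in a promoter of an isomerase and of an ERAD gene. In Pdia6 the ERSE spans bases -98 to -80 from the gene start. Herpud1 held the loose ERSE at -18 to -1, the second form of the element (ERSE-II, searched as ATTGG, any 1 base and CCACG, in 0.0365% of windows) at -52 to -42 and TTGCATCA, a composite element bound by ATF4 with C/EBP factors (0.895% of windows), at -112 to -105. Capitals mark these matches, which are descriptions of the letters and not shown to be bound.
Pdia6, chr12:17266339-17266638, plus strand: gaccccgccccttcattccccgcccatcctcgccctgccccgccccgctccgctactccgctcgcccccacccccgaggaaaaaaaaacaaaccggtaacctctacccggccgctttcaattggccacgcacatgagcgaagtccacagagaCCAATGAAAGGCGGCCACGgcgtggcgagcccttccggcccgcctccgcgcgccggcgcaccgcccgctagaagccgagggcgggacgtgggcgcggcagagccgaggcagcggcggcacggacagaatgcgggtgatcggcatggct
Herpud1, chr8:94386179-94386478, plus strand: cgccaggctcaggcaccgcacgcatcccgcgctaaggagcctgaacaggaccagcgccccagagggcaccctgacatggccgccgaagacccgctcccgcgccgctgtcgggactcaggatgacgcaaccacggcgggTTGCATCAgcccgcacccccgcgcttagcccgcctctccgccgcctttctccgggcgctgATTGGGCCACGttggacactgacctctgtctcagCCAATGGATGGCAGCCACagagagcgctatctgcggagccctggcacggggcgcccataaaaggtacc
The windows of Xbp1, Ern1 and Sdf2l1 held none of these motifs, and TGACGTGG, the core of an element bound by XBP1 and ATF6, was in none of the 9 windows and in 0.676% of all windows.

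Expression is given in RPKM, read counts scaled to transcript length and to the mapped reads of the library. Steps between the lowest values put the depth at an estimated 74.1 M and 85.6 M fragments for Naa10-KO replicates 1 and 2 and at 50.9 M and 52.0 M for WT replicates 1 and 2. The row of Naa10, joined with its neighbour Renbp, had 28.9 and 34.4 RPKM in Naa10-KO replicates 1 and 2, against 105 and 106 RPKM in WT replicates 1 and 2. This row fell, with a log2 difference of -1.71 and an SE of 0.11 (limma adjusted p = 0.0342). Its call was lost without rows at 0 and small RNA rows (adjusted p = 0.0821) and without WT replicate 1 or 2 (adjusted p = 0.366 and 0.355), while the difference stayed between -1.71 and -1.70. The Naa10-KO libraries differed from each other more than the WT libraries did, by a median of 0.25 against 0.05 on the log2 scale over all tested rows and of 0.20 against 0.04 over the 10 ER rows. Both Naa10-KO libraries also stood apart from WT in fibroblast markers. The 19 rows found for 20 markers summed to 1209 RPKM in Naa10-KO replicate 1 and 483 RPKM in Naa10-KO replicate 2, against 463 and 480 RPKM in the WT libraries. Most of the sum in Naa10-KO replicate 1 came from Vim, Fn1, Tagln and Acta2, with 386, 254, 192 and 132 RPKM. No marker row was at 0 in any library. Of the 18 tested marker rows, 16 were above both WT libraries and 2 below in Naa10-KO replicate 1, beside 38.3% and 54.6% of all tested rows. In Naa10-KO replicate 2, 3 were above and 14 below, beside 41.8% and 48.3%. The median differences from the WT mean were 0.94 and -0.29 in Naa10-KO replicates 1 and 2. In replicate 2, Fn1 was above WT, with 231 RPKM against 188 and 189 RPKM in WT, and so was Vim, with 137 RPKM against 118 and 128 RPKM in WT. There Postn and Dcn were at 15.8% and 25.8% of the WT mean. In replicate 1, the 2 rows below both WT libraries were Lum and Pdgfrb, at 79.8% and 94.2% of the WT mean. Of the 10 rows of ESC markers, 7 were below and 3 above both WT libraries in Naa10-KO replicate 1 (median -0.38), and 1 was below and 8 above in replicate 2 (median 0.25). They summed to 4199 and 5082 RPKM in Naa10-KO and to 4952 and 5036 RPKM in WT, sums in which the joined row of Dppa5a and Ooep alone held 1698 and 2018 RPKM in Naa10-KO and 2476 and 2578 RPKM in WT. The rows of primitive endoderm summed to 350 and 306 RPKM in Naa10-KO and 302 and 283 RPKM in WT. Fibroblasts are secretory cells that express ER genes, and the part of fibroblast RNA in the values of either Naa10-KO library was not tested. In bulk samples, fewer cells of a type and less RNA per cell cannot be told apart.

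No row of the 10 passed the threshold (0 of 10, limma on log2(RPKM + 1), adjusted p under 0.05; 0.764% of the 11912 tested rows passed), and 3 of 10 had an unadjusted p under 0.05, beside 22.1% of all tested rows. In Naa10-KO cells, Ern1, Pdia6, Herpud1 and Sdf2l1 were lower and Xbp1 was higher than both WT libraries in both libraries. The other 5 rows, Calr, Canx, Pdia3, Pdia4 and Atf6, had the Naa10-KO libraries on opposite sides of the WT pair. Non-overlapping groups were thus found below WT in 4 of 10 rows and above WT in 1 of 10, beside 34.9% and 24.4% of all tested rows. The median difference between Naa10-KO and WT was -0.11 over the 10 rows and -0.06 over all tested rows, on the log2 scale.

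**Figure D1:**
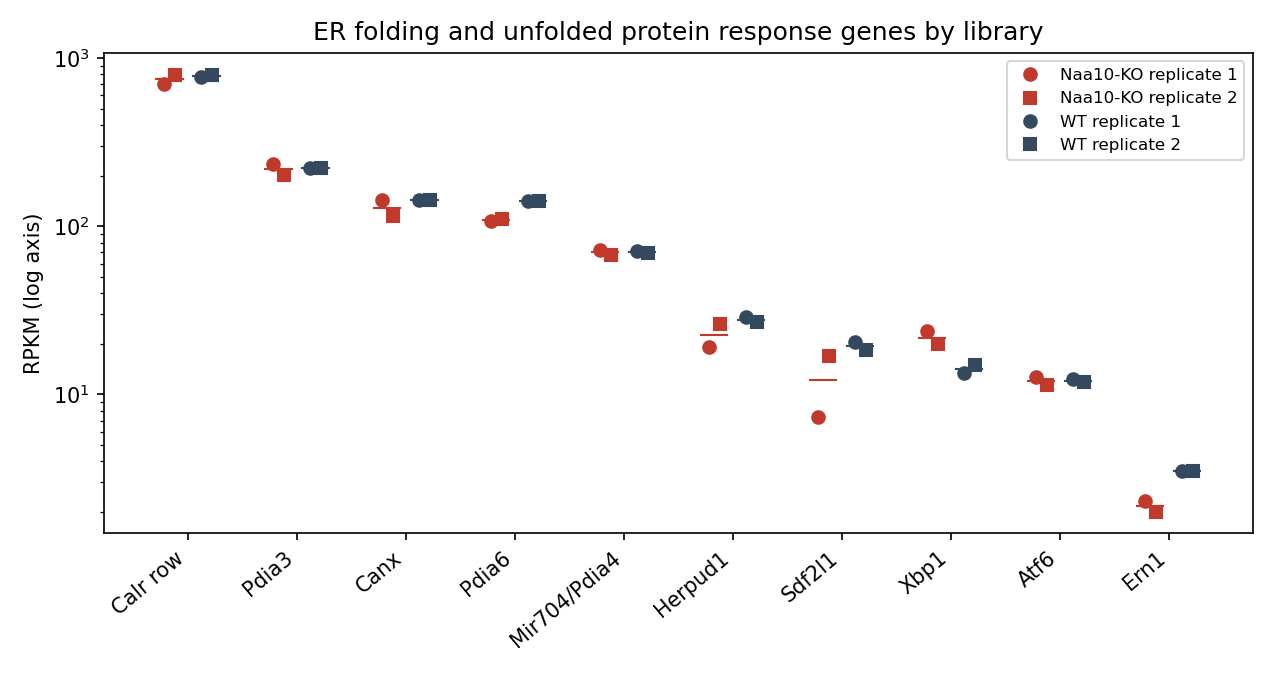
RPKM on a log axis of the 10 ER genes in each library, with Naa10-KO in red left of WT in dark blue; short lines are group means of 2 libraries. Levels span from 795 RPKM for the Calr row to 2.01 RPKM for Ern1, and the widest gap between replicates is that of Sdf2l1 in Naa10-KO cells.

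The levels set the lectins and isomerases apart from the sensors and regulators. In WT cells the order by RPKM, a measure per length, was Calr, Pdia3, Canx, Pdia6, Pdia4, Herpud1, Sdf2l1, Xbp1, Atf6 and Ern1, and no neighbours in this order had overlapping libraries. In Naa10-KO cells Xbp1 stood above Sdf2l1, and the rest kept their order. There the libraries of Herpud1 and Xbp1 overlapped, as did those of Sdf2l1 and Atf6, so the order of those neighbours is within the spread between replicates.

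Among the sensors, Ern1, the IRE1α kinase and endoribonuclease that splices Xbp1, had the lowest level of the 10. It stood at 2.32 and 2.01 RPKM in Naa10-KO replicates 1 and 2, against 3.53 and 3.51 RPKM in WT replicates 1 and 2. The groups did not overlap, and the Naa10-KO libraries were at 65.9% and 57.2% of the WT mean. On the log2 scale Ern1 differed by -0.51 (SE 0.12, 95% interval -0.85 to -0.18, limma adjusted p = 0.144), so it did not pass over all rows. Atf6, the sensor that becomes a transcription factor once cut in the Golgi, had 12.7 and 11.4 RPKM in Naa10-KO cells and 12.3 and 11.9 RPKM in WT cells. The libraries overlapped and the difference was -0.01 (SE 0.10, 95% interval -0.30 to 0.28, limma adjusted p = 0.958).

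Xbp1, whose mRNA is the substrate of Ern1, was the only one of the 10 with a higher mean in Naa10-KO cells. It had 23.7 and 19.9 RPKM in Naa10-KO replicates 1 and 2, against 13.4 and 15.0 RPKM in WT replicates 1 and 2. Both Naa10-KO libraries were above both WT libraries, at 167% and 140% of the WT mean. The groups averaged 21.8 ± 2.66 RPKM in Naa10-KO and 14.2 ± 1.07 RPKM in WT (SD, n = 2 each), 1.53-fold on the RPKM scale. The log2 difference was 0.58 (SE 0.13, 95% interval 0.22 to 0.94, limma adjusted p = 0.140), and it did not pass. Ern1 and its substrate Xbp1 thus lay on opposite sides of WT in both Naa10-KO libraries; whether spliced Xbp1 mRNA differed was not measured.

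The lectin chaperones and their partner isomerase did not separate the groups. The Calr row, by far the highest of the 10, had 697 and 795 RPKM in Naa10-KO replicates 1 and 2, against 770 and 793 RPKM in WT replicates 1 and 2. Its libraries overlapped, and the difference was -0.07 (SE 0.09, 95% interval -0.32 to 0.19, limma adjusted p = 0.671). Canx, the membrane-bound relative of calreticulin, had 143 and 115 RPKM in Naa10-KO replicates 1 and 2, against 143 RPKM in each WT library. Naa10-KO replicate 1 was at the WT level and replicate 2 at 80.4% of it, for a difference of -0.15 (SE 0.13, 95% interval -0.51 to 0.20, limma adjusted p = 0.506). Pdia3 (ERp57), the isomerase that both lectins recruit, had 233 and 202 RPKM in Naa10-KO cells and 223 and 221 RPKM in WT cells. Its Naa10-KO libraries lay around the WT pair, with a difference of -0.03 (SE 0.09, 95% interval -0.29 to 0.23, limma adjusted p = 0.855).

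Of the other isomerases, Pdia6 separated the groups and Pdia4 did not. Pdia6 (P5), which works with the Hsp70 chaperone of the ER and binds Ern1 and other sensors, had 107 and 111 RPKM in Naa10-KO replicates 1 and 2, against 142 and 141 RPKM in WT replicates 1 and 2. Replicates lay close together in both groups, which did not overlap, and the averages were 109 ± 2.92 RPKM in Naa10-KO and 141 ± 0.903 RPKM in WT (SD, n = 2 each), 0.773-fold. The difference of -0.37 (SE 0.06, 95% interval -0.55 to -0.19, limma adjusted p = 0.116) had the smallest p of the 10 rows and did not pass over all rows. The Pdia4 row (ERp72) had 72.3 and 67.5 RPKM in Naa10-KO cells and 71.1 and 69.6 RPKM in WT cells. Its difference was -0.01 (SE 0.07, 95% interval -0.22 to 0.20, limma adjusted p = 0.941), with the Naa10-KO libraries on either side of the WT pair.

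Herpud1 and Sdf2l1 were lower mainly in Naa10-KO replicate 1. Sdf2l1, an ER protein that assists the Hsp70 cochaperones, had 7.35 and 17 RPKM in Naa10-KO replicates 1 and 2, against 20.5 and 18.3 RPKM in WT replicates 1 and 2. Replicate 1 was at 37.9% of the WT mean and replicate 2 at 87.5%, so the difference of -0.73 had an SE of 0.41 (95% interval -1.87 to 0.41, limma adjusted p = 0.362); without replicate 1 it was -0.18. Herpud1, a membrane protein that brings ERAD ubiquitin ligases together, had 19.1 and 26.3 RPKM in Naa10-KO replicates 1 and 2, against 28.7 and 26.9 RPKM in WT replicates 1 and 2. The 2 Naa10-KO libraries were at 68.6% and 94.9% of the WT mean, with a difference of -0.30 (SE 0.18, 95% interval -0.80 to 0.21, limma adjusted p = 0.394), or -0.07 without replicate 1. The low library of both genes is the one with the high fibroblast markers given above, whose part in these values was not tested.

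**Figure D2:**
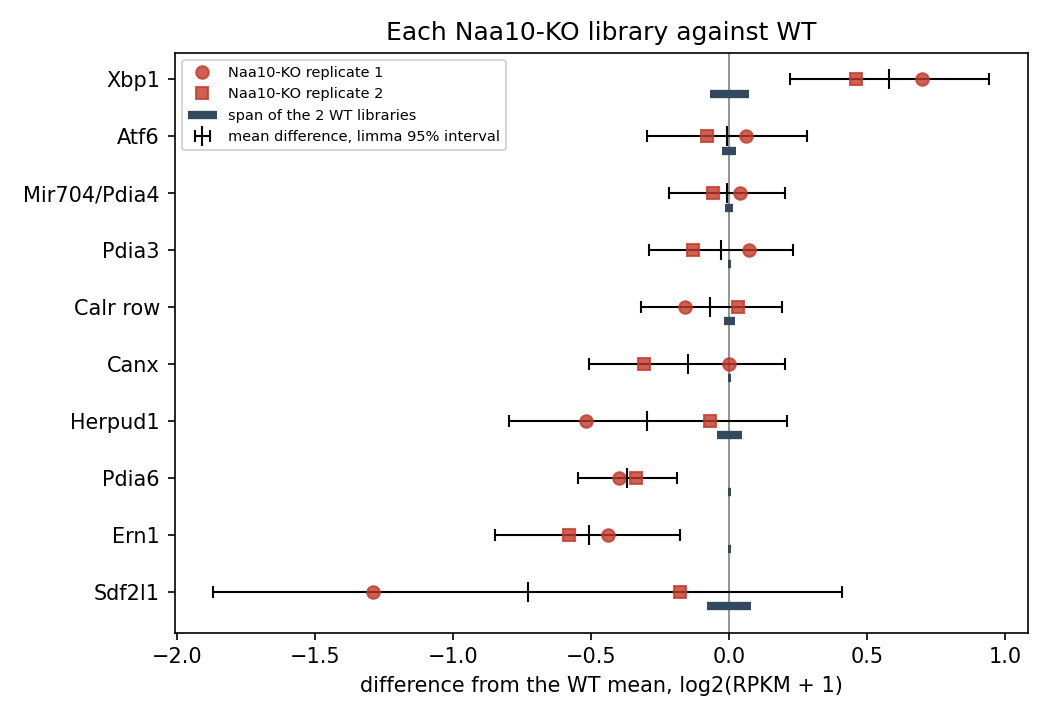
Difference of each Naa10-KO library (red, circle for replicate 1, square for replicate 2) from the WT mean on the log2(RPKM + 1) scale, with the mean difference and its limma 95% interval in black and the span of the 2 WT libraries as a dark blue bar. Pdia6 and Ern1 have both libraries close together and away from 0. Xbp1 has them at 0.70 and 0.46, while Sdf2l1 spreads from -1.29 to -0.18.

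Taken library by library, the 10 rows lay on both sides of WT. Naa10-KO replicate 1 was above both WT libraries in 5 rows and below both in 5, beside 38.3% and 54.6% of all tested rows. Naa10-KO replicate 2 was above both in 2 rows and below both in 8, beside 41.8% and 48.3%. The median differences from the WT mean were -0.08 and -0.11 in replicates 1 and 2, beside -0.08 and -0.02 over all tested rows. The gap between the Naa10-KO replicates was widest for Sdf2l1, at 1.11 on the log2 scale, and narrowest for Pdia6, at 0.05.

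The other genes of ER folding and of the stress response were read from 7 lists of known function holding 134 genes, of which 122 rows were tested. Of these rows 1 rose and 1 fell (limma adjusted p under 0.05), and both calls rested on rows listed at 0 in a whole group. Ssr4, which encodes a protein of the translocon-associated TRAP complex, was listed at 42.6 and 49.6 RPKM in Naa10-KO and at 0 in both WT libraries (limma adjusted p = 0.00295). Kdelr3, a receptor that returns escaped ER proteins, was listed at 0 in both Naa10-KO libraries and at 34.2 and 33.7 RPKM in WT (limma adjusted p = 0.00295, and 0.0538 without WT replicate 1). An exact 0 in these tables can be a failed estimate, so no fold is given. Over the 122 rows, 56 had a positive and 66 a negative difference, with a median of -0.02, and the groups did not overlap in 64 rows, with Naa10-KO lower in 36 and higher in 28 of the 122, beside 34.9% and 24.4% of all tested rows.

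Of the 21 tested rows of ER chaperones and their cofactors, 0 passed, 8 had a positive and 13 a negative difference, and 5 had an unadjusted p under 0.05, beside 22.1% of all tested rows (median -0.01). Hsp90b1 (Grp94), the Hsp90 of the ER, had 261 and 250 RPKM in Naa10-KO replicates 1 and 2, against 356 and 355 RPKM in WT replicates 1 and 2. Its groups did not overlap, with averages of 255 ± 8.06 RPKM in Naa10-KO and 356 ± 1.04 RPKM in WT (SD, n = 2 each; log2 difference -0.48, SE 0.06, limma adjusted p = 0.0922). Hspa5 (BiP), the Hsp70 that holds the sensors inactive, had 261 and 206 RPKM in Naa10-KO and 288 and 304 RPKM in WT (log2 difference -0.35, SE 0.14, limma adjusted p = 0.252). Its cochaperone gene Dnajb9 had 35.2 and 31.2 RPKM in Naa10-KO and 41.5 and 41.0 RPKM in WT (limma adjusted p = 0.184). All 3 chaperone genes were thus lower in both Naa10-KO libraries, as Pdia6 was, without passing. Over the 21 rows, both Naa10-KO libraries were below both WT libraries in 7 and above in 4, beside 34.9% and 24.4% of all tested rows. Hyou1 (-0.00), Dnajb11 (-0.01) and Ppib (0.02) had Naa10-KO libraries on opposite sides of the WT pair.

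The chaperones with the largest differences lay on the other side. Fkbp10, a prolyl isomerase that folds collagen, had 15.6 and 8.51 RPKM in Naa10-KO replicates 1 and 2, against 6.27 and 6.32 RPKM in WT replicates 1 and 2 (limma adjusted p = 0.243). Serpinh1 (Hsp47), the collagen chaperone, had 51.7 and 31.5 RPKM in Naa10-KO and 27.5 and 25.8 RPKM in WT (limma adjusted p = 0.286). Both were highest in Naa10-KO replicate 1, the library with the high fibroblast markers, and neither passed.

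In the glycoprotein folding cycle, 0 of 10 tested rows passed and the median was -0.07. Clgn, a relative of calnexin known from the testis, had 2.85 and 4.69 RPKM in Naa10-KO and 5.47 and 5.36 RPKM in WT (limma adjusted p = 0.321). Uggt2, a relative of the enzyme that marks unfolded glycoproteins, had 1.29 and 0.754 RPKM in Naa10-KO and 1.35 and 1.32 RPKM in WT (limma adjusted p = 0.496). In both genes the Naa10-KO replicates differed more than the WT replicates.

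In the isomerase family and the oxidation pathway, 0 of 17 tested rows passed, with a median of -0.06. P4hb (PDI), the founding isomerase, had 259 and 244 RPKM in Naa10-KO and 246 and 244 RPKM in WT (limma adjusted p = 0.763). Ero1lb, an oxidase that recharges isomerases, had 1.11 and 2.05 RPKM in Naa10-KO and 3.38 and 3.13 RPKM in WT (limma adjusted p = 0.179). Qsox1, a sulfhydryl oxidase, had 15.6 RPKM in Naa10-KO replicate 1 and 5.86 RPKM in replicate 2, against 6.82 and 6.56 RPKM in WT (limma adjusted p = 0.572). Qsox1 was thus high in Naa10-KO replicate 1 and below WT in replicate 2, while Ero1lb was below WT in both.

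Of the other sensors and transcription factors of the response, 0 of 19 tested rows passed, with a median of -0.03. Eif2ak3 (PERK), the third sensor, had 6.89 and 7.95 RPKM in Naa10-KO and 9.11 and 9.22 RPKM in WT (limma adjusted p = 0.268). Atf4, the transcription factor of its arm, had 357 and 326 RPKM in Naa10-KO and 421 and 406 RPKM in WT (limma adjusted p = 0.168). Both Naa10-KO libraries were below both WT libraries for each of these, and Ddit3 (CHOP) was not analysed here. Atf6b, the relative of Atf6, was above WT in both libraries, with 27.3 and 24.3 RPKM in Naa10-KO and 20.9 and 20.1 RPKM in WT (limma adjusted p = 0.193). Creb3l1, a related factor anchored in the ER, had 14.7 and 10.5 RPKM in Naa10-KO and 7.95 and 7.28 RPKM in WT (limma adjusted p = 0.177). Atf3, a stress-induced factor, was near WT in Naa10-KO replicate 1 at 11.5 RPKM and lower in replicate 2 at 6.23 RPKM, against 12.2 and 11.6 RPKM in WT (limma adjusted p = 0.436).

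ERAD was the only one of the 7 lists with a positive median, 0.04 over 27 tested rows, of which 0 passed; both Naa10-KO libraries were above both WT libraries in 11 rows and below in 5, beside 24.4% and 34.9% of all tested rows. Syvn1 (Hrd1), a membrane ubiquitin ligase that Herpud1 binds, had 23.4 and 17.8 RPKM in Naa10-KO replicates 1 and 2, against 15.4 and 14 RPKM in WT (limma adjusted p = 0.234). Edem1, which hands over misfolded glycoproteins, had 8.74 and 8.10 RPKM in Naa10-KO and 6.90 and 6.97 RPKM in WT (limma adjusted p = 0.269). Both were above WT in both Naa10-KO libraries, the side on which Xbp1 lay and Herpud1 did not. The largest difference was that of Ube2j1, a ubiquitin-conjugating enzyme of ERAD, which had 10.5 and 3.60 RPKM in Naa10-KO and 3.21 and 3.04 RPKM in WT (limma adjusted p = 0.383).

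Apart from Ssr4 and Kdelr3, 24 of the 26 tested rows of translocation into the ER and retrieval did not pass, and the median was -0.05. Sec61a2, a second form of the channel subunit, had 9.05 and 12.7 RPKM in Naa10-KO and 21.4 and 17.2 RPKM in WT (limma adjusted p = 0.162). Sec11c, a catalytic subunit of the signal peptidase, had 6.93 and 6.16 RPKM in Naa10-KO and 9.26 and 11.4 RPKM in WT (limma adjusted p = 0.153). Both were lower in both Naa10-KO libraries. The list of further ATF6 and XBP1 targets, which overlaps the others, held 20 tested rows, of which 0 passed. The groups did not overlap in 14 of them, 7 above and 7 below WT, beside 24.4% and 34.9% of all tested rows, and the median was -0.01, with differences from Hsp90b1 at -0.48 to Syvn1 at 0.45.

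**Figure D3:**
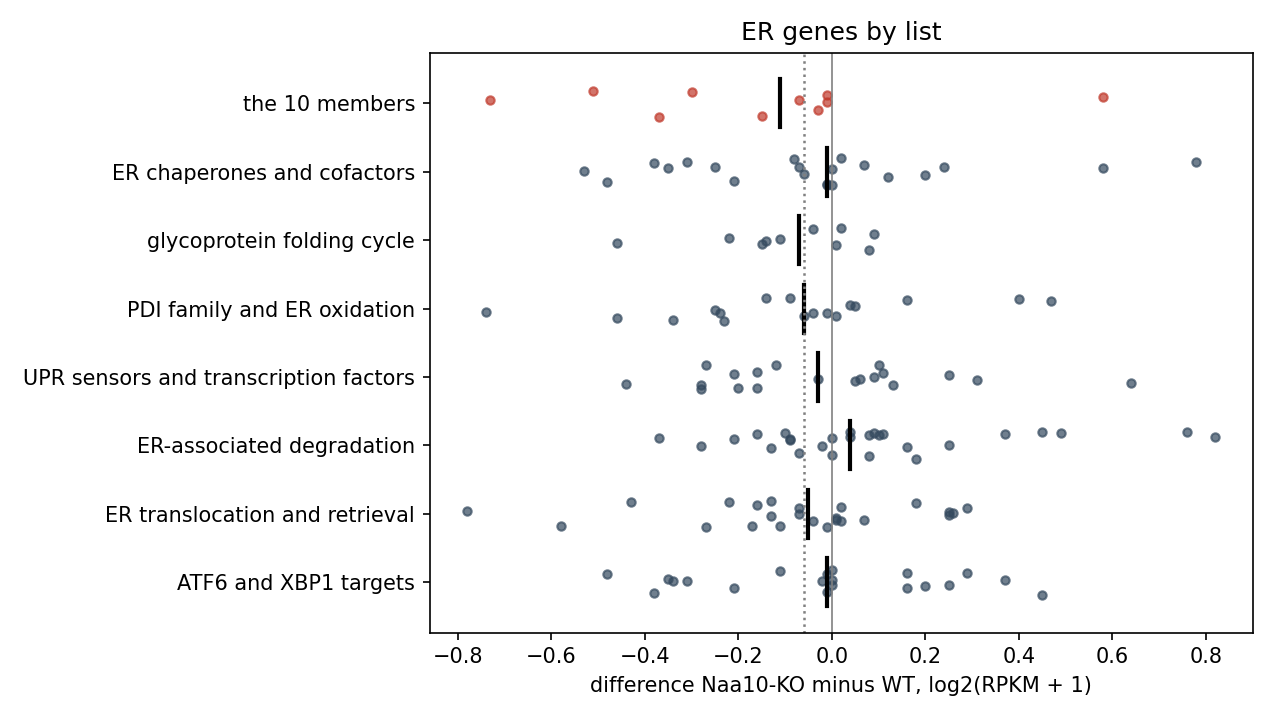
Difference between Naa10-KO and WT on the log2(RPKM + 1) scale for each tested row, the 10 members in red and the 7 other lists in dark blue, with list medians as black bars and the median of all tested rows (-0.06) as a dotted line. Rows listed at 0 in a library (Ssr4 and Kdelr3) are not drawn, though the medians include them; list medians run from -0.11 to 0.04.

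The promoter motif was then read against the values of all genes that carry it. Of 8867 tested rows with a promoter window, 18 held the strict ERSE shown above for Calr, Canx and Pdia6, and 0 of the 18 passed the threshold (limma adjusted p from 0.0922 to 0.983). Their median difference was -0.27, against -0.05 over the 8867 rows, and 16 of 18 were negative, beside 6831 of all 11912 tested rows. The groups did not overlap in 12 of the 18, with Naa10-KO lower in 10 and higher in 2, beside 34.9% and 24.4% of all tested rows. By library, the medians were -0.30 and -0.26 for Naa10-KO replicates 1 and 2, beside -0.08 and -0.02 over all tested rows. Of the 18 rows, 15 and 12 were below the WT mean in replicates 1 and 2. The share of all tested rows below the WT mean was not counted. By the stricter measure of lying below both WT libraries, it was 54.6% and 48.3%. The 18 rows were 3 of the 10 members, 6 rows of the other ER lists (Hsp90b1, Hspa5, Creld2, Dnajc3, Derl3 and Syvn1) and 9 rows of other genes, named after their values were seen. Among the other 9, the row of Hnrnpa3, an RNA-binding protein, joined with Gm6793, had 516 and 546 RPKM in Naa10-KO and 718 and 755 RPKM in WT, and that of Alg12, a mannosyltransferase of the ER, had 4.70 and 6.58 RPKM in Naa10-KO and 8.11 and 7.18 RPKM in WT. The 2 rows with a positive difference were Syvn1 and Spats2l, which were above both WT libraries in both Naa10-KO libraries. In the rows of Calr, Canx, Derl3, Acacb, Xlr3b and Adcy3, the Naa10-KO libraries were not both below both WT libraries. Adcy3 was listed at 0 in 1 library of each group. For the loose ERSE the median was -0.28 over 41 rows, for ERSE-II -0.10 over 8, for TTGCATCA -0.10 over 65 and for TGACGTGG -0.03 over 98. The 41 rows include the 18 of the strict ERSE, so their median is not a separate observation. For the loose ERSE and for TGACGTGG 1 row each passed the threshold, and for ERSE-II and TTGCATCA 0 did, beside 0.764% of all tested rows.

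**Figure D4:**
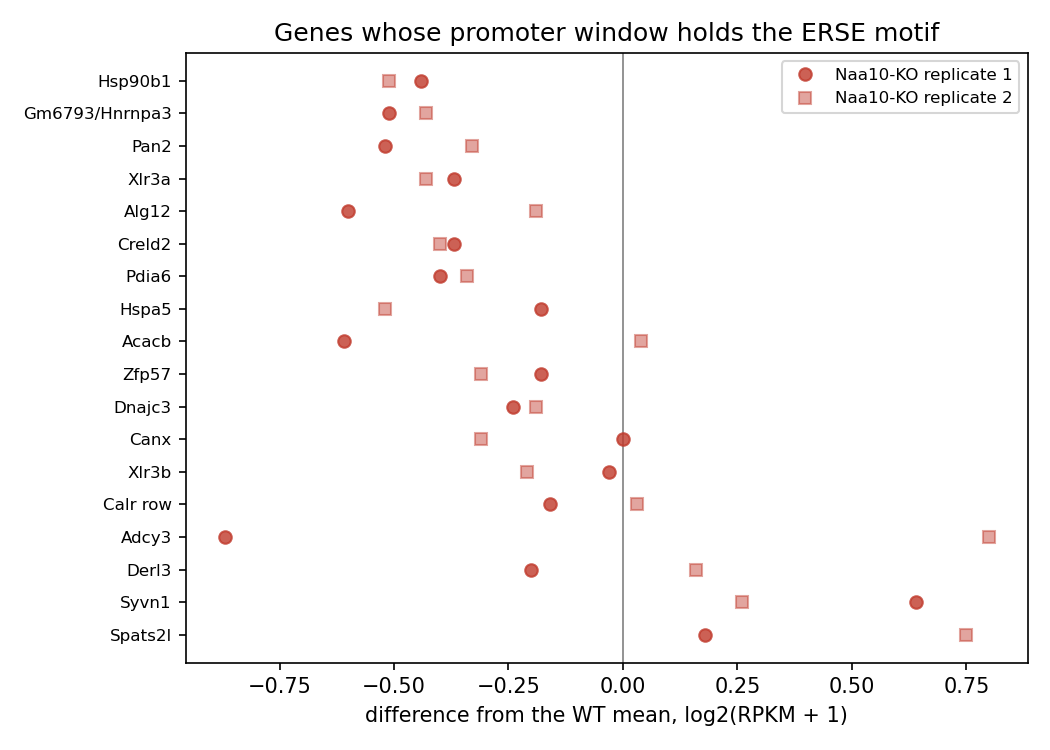
Difference of each Naa10-KO library from the WT mean, log2(RPKM + 1), for the 18 tested rows whose promoter window holds the strict ERSE, ordered by their mean difference. In 10 of the 18 rows both Naa10-KO libraries lie below both WT libraries, Hsp90b1 at the top with -0.44 and -0.51; Adcy3 was listed at 0 in 1 library of each group.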

How the data were processed

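The authors deposited 1 table of RPKM values per library, per the file headers; per the submitters' processing notes, the tools included Cufflinks and bedtools and the build was mm9. The sources used here name no aligner, annotation or versions. Rows were used as deposited. The 11912 rows that reached 1 RPKM in 2 or more libraries were fitted as log2(RPKM + 1) in limma 3.58.1 under R 4.3.3. The test was two-sided, allowed the variance to follow the mean, and used Benjamini-Hochberg adjustment over the tested rows and a threshold of 0.05. This scale understates changes of low genes. Python 3.11.15 and pandas 2.3.3 handled tables, and the procedure was tested on simulated data. Depth was estimated from steps between low values, assuming fragments of 200 nt. At the best total only 38.7% of 832 low values lay near a whole number of fragments. The totals are thus rough, as are the chi-square values below, which scale with them. Between replicates, the mean chi-square per gene of estimated fragments (100 to 500) was 49.01 over 426 genes in Naa10-KO and 1.87 over 401 genes in WT. Sampling noise alone gives about 1, so the Naa10-KO libraries differed far beyond it. All libraries were kept in the main fit, and no rule for leaving one out was set. Whether reads were counted by strand is not stated.

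The members, lists and motifs were chosen with earlier results of these data known. Named genes were the members, Naa10, 11 further ER genes, every row past the threshold in a list and the 2 largest differences of each list among rows above 0 in all libraries; an item this rule names is not reported here. Alternatives covered the pseudocount, filters, scaling, trend, a replicate block and each library left out. Sequences are RefSeq's, build GRCm38.p6, and were matched by symbol.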

Additional observations from a re-analysis of the deposited data

How the results depend on the processing

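With 2 libraries per group the test had 2 residual degrees of freedom. The count of 0 of the 10 ER rows past the threshold held under every alternative that kept all 4 libraries, and ranged from 0 to 6 with a library left out (4 without Naa10-KO replicate 1, 6 without replicate 2, 0 without either WT library). A left-out library leaves a lone one, assumed to vary like the other pair, and the calls then ran high when the lone library was Naa10-KO: over all rows 12 to 7081 against 91, and over the other ER rows 1 to 59 against 2. The count over all rows was 40 with no filter on low values and 0 without rows at 0 and small RNA rows, when the 2 ER calls also became 0 (both rows are at 0 in a group) and the Naa10 row, at -1.71, had an adjusted p of 0.0821. With a library left out the Naa10 row ranged from -1.83 to -1.59, and its call was lost without either WT library (adjusted p = 0.366 and 0.355). Without WT replicate 1, Kdelr3 had an adjusted p of 0.0538. The labels do not say that replicate numbers pair libraries, and same-numbered deviations correlated at -0.21 over rows; with the replicate number as a block, 44 rows passed, 0 of them among the 10 and 2 among the other ER rows. The median of the 10 was -0.07 at a mean of 5 RPKM or more, -0.05 with median centring and -0.07 with quantile normalization, against -0.12 to -0.08 with a library left out. The count of rows with groups apart was 5 and went to 10 without either Naa10-KO library. A row is then apart if the lone Naa10-KO library lies outside the WT pair, as most tested rows do. For replicate 1 alone, 38.3% of all tested rows were above and 54.6% below the WT pair. For replicate 2 alone, 41.8% were above and 48.3% below. Small differences changed sign: with median centring Pdia3 was 0.03, the Pdia4 row 0.05 and Atf6 0.05, and with quantile normalization the Calr row 0.04 and Atf6 0.03. With a library left out, the Calr row ranged from -0.16 to 0.03, Pdia3 from -0.13 to 0.07, Canx from -0.31 to 0.00, the Pdia4 row from -0.06 to 0.04, Atf6 from -0.08 to 0.06, P4hb from -0.01 to 0.08 and Qsox1 from -0.16 to 1.11. Pdia6, Xbp1, Herpud1 and Sdf2l1 kept their direction under all alternatives run, as did Ern1 except that the filter at a mean of 5 RPKM dropped its row.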
